A study of Mus musculus with 6 samples.

Results

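Interferon-inducible GTPases are large and medium-sized GTP-binding proteins that macrophages make in response to interferon. Of the 24062 gene rows in the count tables, 10 were described here, chosen by name. They comprise the guanylate-binding proteins Gbp2, Gbp3, Gbp5, Gbp6, Gbp7 and Gbp9 and the immunity-related GTPases Irgm1, Irgm2, Igtp and Iigp1. All 10 had a row in every table.

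RNA was sequenced from RAW264.7, a macrophage line from mouse, under 6 conditions. Each condition gave 1 library, made from pooled wells. M0 cells were not polarized. M1 cells were treated for 24 h with LPS at 100 ng/mL together with IFN-γ at 20 ng/mL. M2 cells were treated for 24 h with IL-4 at 20 ng/mL. RM0, RM1 and RM2 were the same 3 states exposed afterwards to 10 Gy of gamma radiation and kept for another 24 h. Elsewhere the study's text gives lower doses of both cytokines, and the doses used here are those of the labels. The labels also give bone marrow as the tissue, while naming this cell line. The sources used here do not state whether the non-irradiated cells were kept for the same additional time, nor whether the stimuli stayed in the medium. Irradiation and time after stimulation therefore cannot be told apart in any comparison of an irradiated with a non-irradiated library.

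Guanylate-binding proteins and immunity-related GTPases are classical products of interferon signalling. IFN-γ signals through the kinases JAK1 and JAK2, and the factor IRF1 that it induces then acts on the promoters of these genes. The proteins gather on the membranes of vacuoles that hold bacteria or parasites, help to open them, and guide the release of microbial molecules to inflammasomes, the protein complexes that activate inflammatory caspases. Among the immunity-related GTPases, Irgm1, Irgm2 and Igtp (also called Irgm3) sit on the cell's own membranes and regulate the others, while Iigp1 (also called Irga6) is an effector that loads onto parasite vacuoles.

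The 10 genes lie in 4 groups in the mouse genome (GRCm38 coordinates, as listed in the tables). Gbp5 (chr3:142496934-142522344), Gbp7 (chr3:142541356-142550151), Gbp3 (chr3:142560052-142573212) and Gbp2 (chr3:142624575-142638008) form a row on the plus strand of chromosome 3. Gbp9 (chr5:105078394-105110292) and Gbp6 (chr5:105270702-105293699) lie on the minus strand of chromosome 5. Igtp (chr11:58199556-58207592) and its neighbour Irgm2 (chr11:58214977-58222783) lie on the plus strand of chromosome 11, and Irgm1 (chr11:48865249-48871346) on its minus strand. Iigp1 lies on another chromosome. The listed span covered 77.4% of the RefSeq gene for Gbp2, 44.4% for Gbp7 and between 87.3% and 100% for the other 8, so where in Gbp2 and Gbp7 the reads were counted is not known. The counts of Gbp6 are uncertain, since 82.9% of the 100-base windows of its transcript also occur in other genes, all but 1 of them named guanylate-binding proteins. The share was 10.2% for Gbp7, 5.67% for Igtp and 2.01% or less for the other 7 genes.

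Promoter windows of RefSeq (GRCm38.p6), running from 250 bases before to 50 bases after the annotated start, were used for 7 of the 10 genes. They were searched on both strands for GAAANNGAAA, a pattern of the interferon-stimulated response element (ISRE) that IRF factors bind, and for TTCNNNGAA, the gamma-activated site (GAS), an element of genes that respond to IFN-γ. The patterns may overlap each other. All 7 genes held an ISRE-like match, compared with 3.44% of the 32851 promoter windows searched. A GAS-like match was present in 4 of them (Gbp5, Gbp7, Igtp and Irgm2), compared with 8.30% of all windows, and the same 4 held both, compared with 0.454%. A second annotated start of Gbp3 had neither. The genes are related by descent, so these matches are not independent of each other, and a match is a description of letters, not a bound site. The 250 bases upstream of 4 genes are shown, those of Gbp2 and Gbp5 because these genes differed most between libraries among the well-counted members, and those of Igtp and Irgm2 because the places of both matches were alike. Letters in capitals mark ISRE-like and GAS-like matches, and the last base precedes the annotated start.
Gbp2: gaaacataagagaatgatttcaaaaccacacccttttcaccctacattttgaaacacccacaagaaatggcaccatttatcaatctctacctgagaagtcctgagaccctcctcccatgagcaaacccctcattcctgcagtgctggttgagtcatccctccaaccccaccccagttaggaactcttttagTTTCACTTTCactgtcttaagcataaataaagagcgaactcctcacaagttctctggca
Gbp5: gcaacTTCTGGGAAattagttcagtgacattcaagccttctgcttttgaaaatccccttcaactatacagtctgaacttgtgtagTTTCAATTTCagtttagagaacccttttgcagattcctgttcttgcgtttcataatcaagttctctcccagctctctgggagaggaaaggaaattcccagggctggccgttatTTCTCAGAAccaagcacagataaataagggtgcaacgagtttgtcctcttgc
Igtp: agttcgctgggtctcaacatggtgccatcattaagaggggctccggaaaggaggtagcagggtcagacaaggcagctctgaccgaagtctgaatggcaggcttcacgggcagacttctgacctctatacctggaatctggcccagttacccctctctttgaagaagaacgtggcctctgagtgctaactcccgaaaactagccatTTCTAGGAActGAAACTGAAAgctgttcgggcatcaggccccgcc
Irgm2: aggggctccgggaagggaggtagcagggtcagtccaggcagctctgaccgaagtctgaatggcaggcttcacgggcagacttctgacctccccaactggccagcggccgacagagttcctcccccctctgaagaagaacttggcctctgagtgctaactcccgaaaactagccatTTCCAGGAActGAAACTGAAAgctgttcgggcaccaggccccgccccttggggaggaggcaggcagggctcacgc
These windows are chr3:142620413-142620662, chr3:142496684-142496933, chr11:58199306-58199555 and chr11:58214727-58214976, all on the plus strand. In Gbp2 the single ISRE-like match begins 59 bases before the start. In Gbp5 the GAS-like matches begin 245 and 52 bases before it and the ISRE-like match 165 bases before it. In Igtp the GAS-like match spans bases 45 to 37 and the ISRE-like match bases 34 to 25 before the start, and in Irgm2 they span bases 75 to 67 and 64 to 55. The plot of motif places shows the same for all 7 genes.

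**Figure D1:**
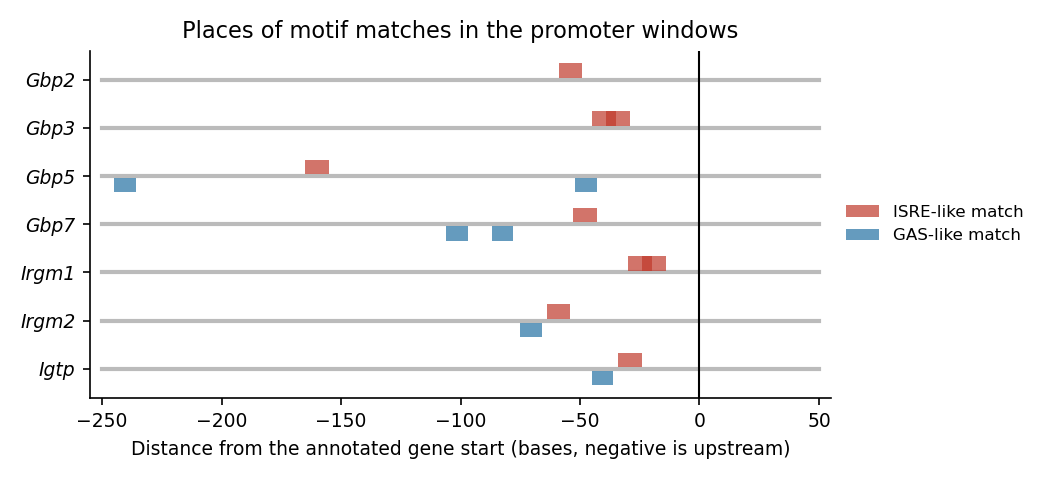
Places of ISRE-like (red, above each line) and GAS-like (blue, below it) matches in the promoter windows of 7 GTPase genes; the x axis is the distance in bases from the annotated gene start. Outside Gbp5 every ISRE-like match begins within 64 bases upstream of the start, and GAS-like matches occur in Gbp5, Gbp7, Irgm2 and Igtp.

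Library totals ranged from 17894937 to 18870516 counts. Levels are given as CPM (counts relative to a library total of 1000000) after TMM scaling, the scaling of edgeR, and ratios between libraries come with exact 95% intervals. Intervals and the limit of 3 counts, below which no level is read, cover counting error only. With 1 library per condition no difference between 2 libraries has a replicate check, and none carries a p-value. In bulk RNA fewer cells of a type and less RNA per cell cannot be told apart. Of the 10 macrophage markers examined, all were over 3 counts in every library except Mertk in M1, and Mertk did not exceed 8 counts anywhere. Their summed level ranged from 22153 CPM in M1 to 37367 CPM in RM0. Most of this sum was Lyz2, with 469530 counts in M0, 199329 in M1 and 580239 in RM0. Of the 9 markers with 10 or more counts in M0 or M1, 7 were higher in M1 than in M0 and 2 lower. Markers of T cells and NK cells summed to at most 1 count in any library, those of B cells to at most 5, and those of dendritic cells to 18 to 58 counts. The 5 fibroblast markers summed to 6.45 to 10.0 CPM in M0, M2, RM0 and RM2, but to 43.6 CPM in M1 and 45.8 CPM in RM1. Most of this was Dcn, with 627 counts in M1 and 726 in RM1, while Col1a2 was at 0 in every library. The fibroblast sum was thus high in both M1 libraries, with or without irradiation, and its part in the results was not tested.

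In every one of the 10 genes M1 was the highest library and RM1 the next. The 10 genes together took 0.115% of the counts of M1 and 0.0301% of those of RM1, and between 0.00917% (RM2) and 0.0127% (M0) of the other libraries. The step from M1 to RM1 was larger than counting error in 10 of 10 genes, and so was the step from RM1 to the next library. Among the 4 other libraries, 6 of 30 steps between neighbours in the order were larger than counting error. These were M0 over RM0 and RM0 over M2 in Gbp2, RM0 over RM2 in Gbp3, M2 over RM0 in Irgm1 and Irgm2, and M0 over M2 in Igtp. The plot of levels shows 2 separate M1 libraries to the right of 4 that lie close together.

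**Figure D2:**
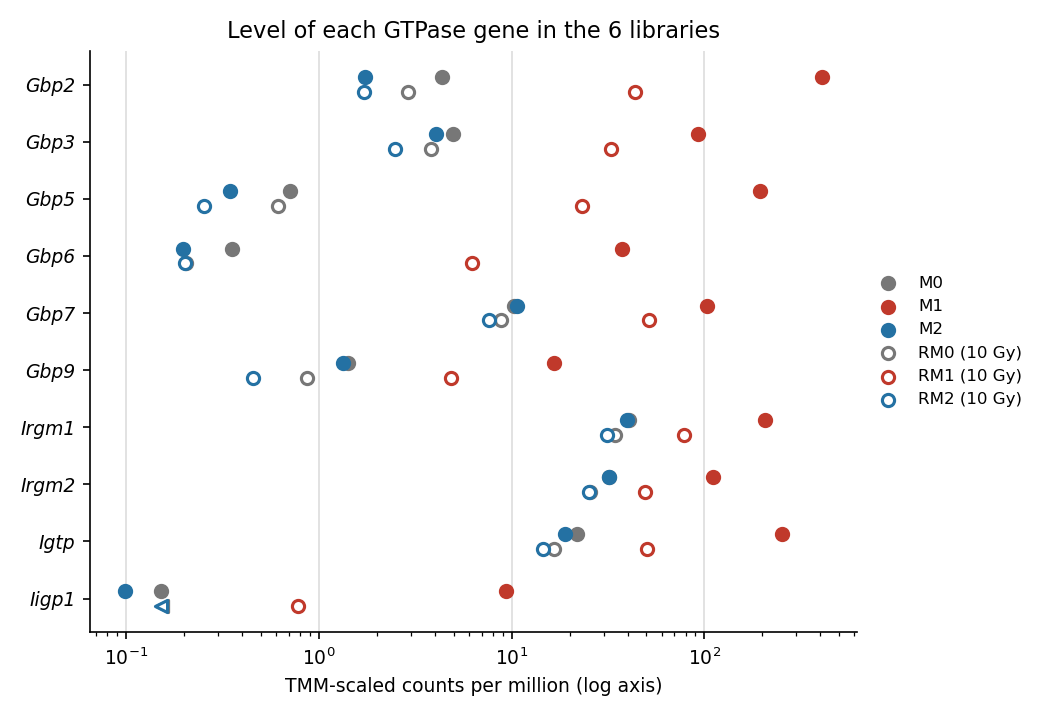
Level of each GTPase gene in TMM-scaled counts (CPM, log axis), with 1 point per library; filled points are non-irradiated and open points irradiated libraries, and left-pointing triangles (RM0 and RM2 of Iigp1, drawn over each other) mark 0 counts, placed at the level of 3 counts. M1 (filled red) is the rightmost point for all 10 genes and RM1 (open red) the second.

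The first question was how far LPS and IFN-γ changed these genes. Among the guanylate-binding proteins of chromosome 3, Gbp2, a prenylated protein that coats pathogen vacuoles, had 86, 6032 and 35 counts in M0, M1 and M2, and 57, 726 and 34 counts after irradiation of the same states. Gbp5, another prenylated member that promotes inflammasome activity, had 14, 2872 and 7 counts in M0, M1 and M2, and 12, 385 and 5 counts after irradiation of the same states. Gbp3 had 99, 1365 and 82 counts in M0, M1 and M2, and 75, 546 and 49 counts after irradiation of the same states. Gbp5 was thus at 14 counts or fewer outside M1 and RM1, while Gbp2 and Gbp3 had at least 34 counts in every library. Gbp7, which has been linked to the oxidase of phagocytes, had 205, 1527 and 216 counts in M0, M1 and M2, and 173, 865 and 151 counts after irradiation of the same states. Its level was the most even of the 4 across the libraries.

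In M1 against M0, the level of Gbp5 was 275-fold higher (95% interval 164 to 504), that of Gbp2 94.1-fold (76.1 to 118), that of Gbp3 18.5-fold (15.1 to 22.9) and that of Gbp7 9.99-fold (8.63 to 11.6). The 4 intervals did not overlap. In the irradiated arm, RM1 against RM0, the same genes were 37.7-fold (21.3 to 73.6), 15.0-fold (11.4 to 20.0), 8.56-fold (6.71 to 11.0) and 5.88-fold (4.99 to 6.96) higher. The order of the 4 genes was the same in both arms, although here the intervals of Gbp3 and Gbp7 overlapped.

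On chromosome 5, Gbp6 had 7, 553 and 4 counts in M0, M1 and M2, and 4, 104 and 4 counts after irradiation of the same states. Gbp9 had 28, 245 and 27 counts in M0, M1 and M2, and 17, 81 and 9 counts after irradiation of the same states. Both were high in M1 and intermediate in RM1 only. Gbp6 was 106-fold higher in M1 than in M0 (51.1 to 265) and 30.6-fold higher in RM1 than in RM0 (11.6 to 114), with the doubt about shared sequence given above. Gbp9 was 11.7-fold higher in M1 than in M0 (2.99 to 4.17 on the log2 scale) and 5.60-fold higher in RM1 than in RM0 (1.72 to 3.33 on the log2 scale).

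The regulatory immunity-related GTPases were already well expressed in untreated cells. Irgm1, which protects mice from intracellular bacteria, had 803, 3061 and 808 counts in M0, M1 and M2, and 671, 1302 and 624 counts after irradiation of the same states. Irgm2 had 638, 1634 and 652 counts in M0, M1 and M2, and 501, 817 and 501 counts after irradiation of the same states. Igtp had 431, 3743 and 383 counts in M0, M1 and M2, and 326, 843 and 288 counts after irradiation of the same states. All 3 genes were thus higher in M1 and RM1 than elsewhere, over a baseline of at least 288 counts. In M1 against M0 Igtp was 11.6-fold (10.5 to 12.9), Irgm1 5.11-fold (4.73 to 5.53) and Irgm2 3.44-fold higher (3.13 to 3.77). In RM1 against RM0 they were 3.04-fold (2.67 to 3.46), 2.28-fold (2.08 to 2.51) and 1.92-fold higher (1.71 to 2.15).

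The effector Iigp1 (chr18:60376029-60392629, plus strand) was the lowest of the 10, with 3, 138 and 2 counts in M0, M1 and M2, and 0, 13 and 0 counts after irradiation of the same states. Its M1 to M0 ratio was 61.7 (20.7 to 303) and rests on those 3 counts. Against the limit of 3 counts, RM1 was at least 5.09-fold higher than RM0, and the exact interval for 13 counts against 0 has a lower limit of 3.58-fold. Iigp1 was therefore detected clearly in M1, weakly in RM1 and not above the limit elsewhere.

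Levels per kilobase of transcript, which allow a rough comparison of genes, were ordered differently in the 2 states. They use whole transcript lengths, although the listed span covered 77.4% of the gene for Gbp2 and 44.4% for Gbp7. The places of these 2 genes, and of Gbp6 with its shared sequence, are therefore uncertain. In M0 Irgm1 led with 17.9 CPM per kb, followed by Igtp with 10.7 and Irgm2 with 9.30, while no guanylate-binding protein exceeded the 1.86 of Gbp3. In M1 Gbp2 led with 162 CPM per kb, followed by Igtp with 125, Irgm1 with 91.6 and Gbp5 with 63.6. In RM1 Irgm1 led again with 34.6 CPM per kb, ahead of Igtp and of Gbp2, which had 17.3.

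By the 2-fold rule, which required 10 or more counts in either library, 10 of 10 genes were higher in M1 than in M0, compared with 9.37% of 11778 genes, and the median log2 fold change was 3.86 against -0.03 over all genes. Gbp6 and Iigp1 reached 10 counts only in the higher library, whereas the other 8 also did so in M0. In RM1 against RM0, 9 of 10 were called, compared with 6.16% of 11713 genes, Irgm2 being the exception. Here Gbp6 and Iigp1 reached 10 counts only in RM1, the library in which they were higher. The median there was 2.79, or 2.44 with Iigp1 placed at its bound, against -0.01 over all genes. When edgeR's quasi-likelihood test was fitted to polarization and irradiation over 11574 genes, with Benjamini-Hochberg adjustment, 8 of the 10 genes could be tested, because Gbp6 and Iigp1 lacked 10 counts in 3 libraries. All 8 rose in M1 over both arms, with adjusted p-values from 1.14e-06 for Gbp5 to 0.00028 for Igtp, and 23.3% of all genes tested rose as well. The estimates ranged from a log2 fold change of 1.39 ± 0.19 (SE) for Irgm2 to 7.15 ± 0.43 for Gbp5. Each SE, here and below, is the size of the estimate divided by the square root of the test's F value. This test uses the radiation arms in place of replicates and takes the M1 effect to be the same in both.

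**Figure D3:**
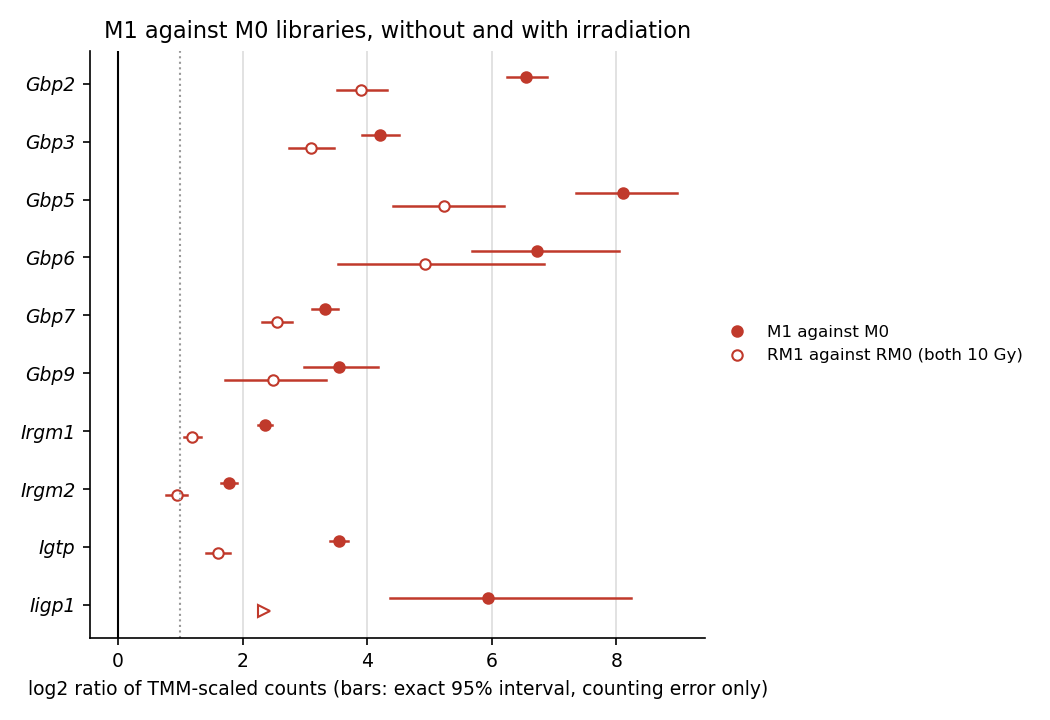
Log2 ratio of TMM-scaled counts for M1 against M0 (filled) and RM1 against RM0 (open) for each GTPase gene, with exact 95% intervals for counting error; the dotted line marks 2-fold and the triangle the lower bound of Iigp1. Every open point lies left of its filled point, though the triangle of Iigp1 is a bound and its ratio may lie further right. The intervals do not overlap for Gbp2, Gbp3, Gbp5, Gbp7, Irgm1, Irgm2 and Igtp.

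The M2 library lay close to M0. In M2 against M0, 8 genes had at least 10 counts in 1 of the libraries. Of these 1, Gbp2, was at least 2-fold lower, compared with 0.442% of 11762 genes. Gbp2 had 35 counts against 86 and was 2.51-fold lower (1.68 to 3.84). Gbp5 stood at 7 counts against 14, which counting error does not separate (ratio 0.489, 0.167 to 1.29), and the ratios of Gbp3, Gbp7, Gbp9, Irgm1 and Irgm2 lay between 0.810 and 1.03. Igtp stood at a ratio of 0.869 (0.755 to 0.999), and Gbp6 and Iigp1 had 7 counts or fewer in both libraries. DESeq2's Wald test over both arms called 0 of 8 genes lower in M2, and 13 of 11574 genes. edgeR's quasi-likelihood test also called 0 of the 8 lower, compared with 0.0346% of all genes tested. In that edgeR test 0 of the 8 had an unadjusted p under 0.05, compared with 1173 of 11574 genes. Its estimate for Gbp2 was -1.10 (adjusted p = 0.574). This fit takes irradiation to act alike in all states, M1 among them. Without M1 and RM1 the same test called 1 of the 8 lower, Gbp2, and 641 of 11667 genes. There 3 of the 8 had an unadjusted p under 0.05, as did 3123 of all genes tested.

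The second question was what differed after irradiation. In untreated cells the change was small. In RM0 against M0, 8 genes had at least 10 counts in 1 of the libraries. Of these 8, 0 were at least 2-fold lower, compared with 0.821% of 11688 genes. Their log2 fold changes ran from -0.64 for Gbp9 to -0.18 for Gbp5. The counting intervals excluded equality for Gbp2 (1.49-fold lower, 1.05 to 2.12), Igtp (1.31-fold, 1.13 to 1.51), Irgm2 (1.26-fold, 1.12 to 1.42) and Irgm1 (1.18-fold, 1.07 to 1.31). In RM2 against M2, 7 genes had at least 10 counts in 1 of the libraries. Of these 1, Gbp9, was at least 2-fold lower, 9 counts against 27, compared with 0.932% of 11801 genes. Gbp3 was 1.64-fold (1.14 to 2.38), Gbp7 1.40-fold (1.13 to 1.73), Igtp 1.30-fold (1.11 to 1.52), Irgm2 1.27-fold (1.13 to 1.43) and Irgm1 1.27-fold lower (1.14 to 1.41), while Gbp2 had 34 counts against 35.

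In the M1 state the difference was much larger. In RM1 against M1, 9 of 10 genes were at least 2-fold lower, compared with 2.25% of 11443 genes, and the median log2 fold change was -2.03 against -0.01 over all genes. Gbp7, at 1.99-fold lower (1.83 to 2.17), stood just outside the threshold. The level left in RM1 was 8.35% of that in M1 for Iigp1, 10.7% for Gbp2, 11.9% for Gbp5 and 16.7% for Gbp6. Igtp kept 20.0%, Gbp9 29.3%, Gbp3 35.5%, Irgm1 37.7%, Irgm2 44.3% and Gbp7 50.2%. As ratios, Gbp2 was 9.37-fold (8.67 to 10.1), Gbp5 8.41-fold (7.56 to 9.38) and Igtp 5.01-fold lower (4.65 to 5.40), and Iigp1 was 12.0-fold lower (6.77 to 23.1). RM1 nevertheless stayed above RM0 in all 10 genes. Since RM1 cells were also kept longer after the stimulus than the labels state for M1, irradiation and time cannot be told apart in these values. The summed fibroblast markers, mostly Dcn, stood at 43.6 CPM in M1 and 45.8 CPM in RM1. RM1 against M1 and M1 against M0 share the M1 library, so their values are not independent. Across the 10 genes, M1 against M0 and RM1 against RM0, which share none, gave similar orders (Spearman's rho 0.927, Pearson's r 0.964, a description over genes that share libraries).

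**Figure D4:**
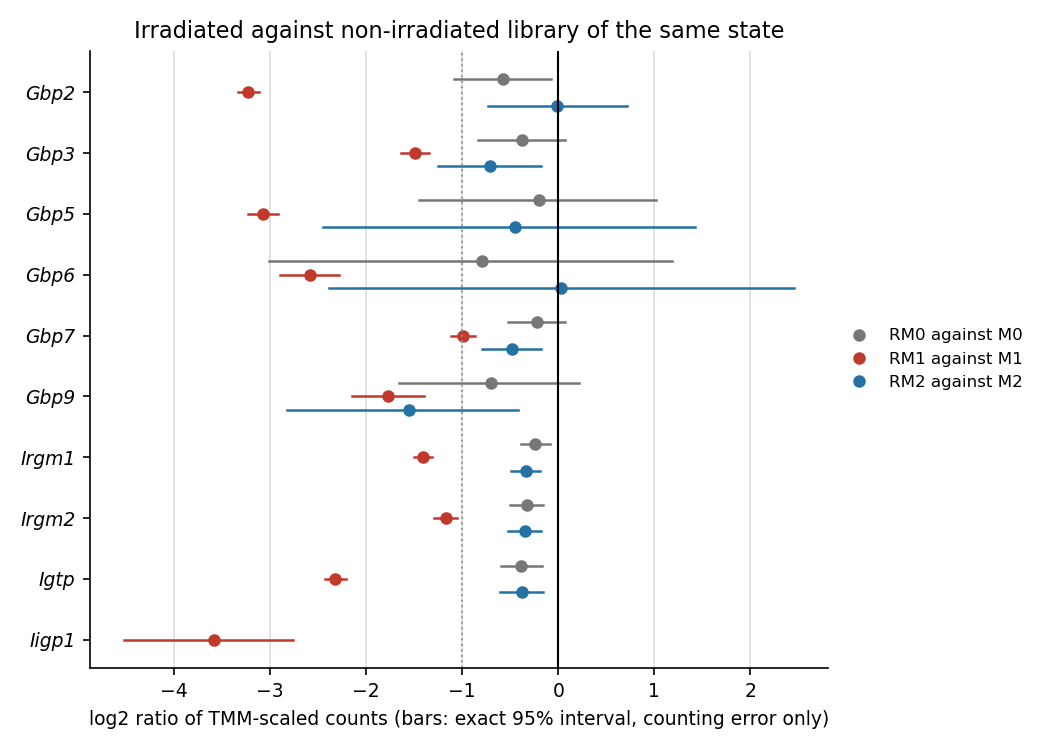
Log2 ratio of TMM-scaled counts for each irradiated library against its non-irradiated counterpart, with exact 95% intervals for counting error; the dotted line marks a 2-fold lower level, and Iigp1 has no ratio for RM0 or RM2, where both libraries had 3 counts or fewer. RM1 against M1 (red) lies between a 1.99-fold and a 12.0-fold lower level, while the other points lie between the dotted line and 0 except Gbp9 in RM2, left of the line, and Gbp6 in RM2, right of 0.

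Counting the direction alone, 9 of 10 genes were lower in all 3 irradiated libraries than in their counterparts, compared with 19.3% of 12079 genes, the exception being Gbp6 with 4 counts in both M2 libraries. Iigp1 is among the 9, although it had 3 counts or fewer in 4 libraries. When irradiation was tested over the 3 states with edgeR's quasi-likelihood test, 2 of 8 genes fell, Gbp5 (-2.69 ± 0.36 (SE) on the log2 scale, adjusted p = 0.012) and Gbp9 (-1.47 ± 0.27, adjusted p = 0.0452), compared with 0.13% of all genes tested. The other 6 had adjusted p-values up to 0.164. All 8 had an unadjusted p under 0.05, as did 14.7% of all genes tested. In DESeq2's Wald test 4 of the 8 did, as did 1047 of 11574 genes. DESeq2 called Gbp3 and Gbp9 but not Gbp5, whose estimate there was -1.32, compared with 0.302% of all genes. With scaling by library totals neither Gbp5 nor Gbp9 was called. The states stand in for replicates here and are taken to respond alike. Without M1 and RM1, 1 of the 8 genes was called lower (Igtp, -0.38), compared with 2.27% of all genes tested. Without M0 and RM0 all 8 were called, compared with 2.34%, and without M2 and RM2 7 of the 8, compared with 0.405%.

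The difference between the M1 state and the other 2 was therefore tested itself, as an M1-by-irradiation term. In edgeR's quasi-likelihood test 7 of 8 genes fell more in M1, compared with 4.61% of all genes tested. The extra log2 difference was -2.86 ± 0.28 (SE) for Gbp2 (adjusted p = 3.6e-21), -2.79 ± 0.54 for Gbp5 (3.24e-05), -1.94 ± 0.19 for Igtp (8.01e-21), -1.12 ± 0.18 for Irgm1 (9.01e-08), -0.97 ± 0.25 for Gbp3 (0.00338), -0.83 ± 0.18 for Irgm2 (0.000442) and -0.64 ± 0.21 for Gbp7 (0.0287). Gbp9 had -0.71 ± 0.47 (adjusted p = 0.363). For each gene the only replicate information in this test is how far the M0 and M2 pairs differ, with 1 residual degree of freedom. edgeR also pools the spread over all genes tested, and these p-values rest mostly on that pooled spread, not on a gene's own. A fault in the single M1 or RM1 library would not show in them. DESeq2's Wald test on the same model called 3 of the 8, Gbp2, Igtp and Irgm1, and called 114 of 11574 genes lower.

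The other members of the family and the pathway were then examined. Of 13 further interferon-inducible or related GTPases, 11 had at least 10 counts in M0 or M1, and 9 of these were at least 2-fold higher in M1, compared with 9.37% of all genes, although 7 of the 9 reached 10 counts only in M1. Against M1, 9 of 11 were at least 2-fold lower in RM1, compared with 2.25% of all genes, and 5 of these 9 reached 10 counts only in M1, where they were higher. Gbp2b (also called Gbp1) had 53 and 4580 counts in M0 and M1, and 46 and 608 in their irradiated counterparts. Gbp4 had 4 and 444 counts in M0 and M1, and 1 and 38 in their irradiated counterparts, and Gbp10 had 4, 353, 2 and 64. Gm4951 had 1 and 48 counts in M0 and M1, and 1 and 8 in their irradiated counterparts. All 4 had the pattern of the described genes, with RM1 between M1 and RM0. Gbp4 and Gbp10 are among the genes that share sequence windows with Gbp6, so their counts may not be separate from those of Gbp6. Gvin1, which encodes a very large GTPase, had 104 and 138 counts in M0 and M1, and 95 and 195 in their irradiated counterparts, and Irgq had 568, 417, 620 and 512, so neither was lower in RM1 than in M1. Of this list 4 could be tested with edgeR, and 3 rose in M1, compared with 23.3% of all genes tested. The M1-by-irradiation term was called lower for 2, Gbp2b (-2.75 ± 0.29) and Ifi47 (-2.31 ± 0.23), compared with 4.61% of all genes tested.

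Of 21 genes of interferon signalling, 19 could be tested with edgeR's quasi-likelihood test. In M1 15 rose, compared with 23.3% of all genes tested. The phosphatase gene Ptpn6 was the 1 that fell (-0.35 ± 0.12), compared with 24.3% of all genes tested. Irf1, the transcription factor needed for full induction of guanylate-binding proteins, had 419, 8628 and 405 counts in M0, M1 and M2, and 404, 1710 and 343 counts after irradiation of the same states. Irf8, a factor of macrophage identity, had 1493, 6225 and 1317 counts in M0, M1 and M2, and 1552, 2052 and 1086 counts after irradiation of the same states. Socs1, a feedback inhibitor of the kinases, had 18, 205 and 35 counts in M0, M1 and M2, and 24, 63 and 26 counts after irradiation of the same states. These 3 genes had the same order of M1 over RM1 over RM0 as the GTPases. The M1-by-irradiation term was called lower for 4 of the 19, compared with 4.61% of all genes tested. They were Irf1 (-2.39 ± 0.18, adjusted p = 3.74e-35), Socs1 (-1.83 ± 0.43), Irf8 (-1.69 ± 0.17) and Irf7 (-0.52 ± 0.16).

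Other genes of the pathway differed less between M1 and RM1. The log2 fold change in RM1 against M1 was -0.22 for Stat2, a factor of the type I interferon response, and 0.22 for the kinase gene Jak2. Irf7, another factor of that response, had 5965 counts in M0, 56496 in M1 and, after irradiation, 39961 in RM1. Ifngr1, a chain of the IFN-γ receptor, had 492 and 246 counts in M0 and M1, and 447 and 364 in their irradiated counterparts. Ifng, the gene of IFN-γ, had 0 counts in 5 libraries and 1 in RM2, which is under the limit of 3 counts. Over the 19 genes with enough counts, 3 were at least 2-fold lower in RM1 than in M1, compared with 2.25% of all genes. The list median was -0.11 beside -2.03 for the 10 GTPases.

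Of 20 genes that act with these GTPases at vacuoles and in cell death, all could be tested. In M1 10 rose by edgeR's quasi-likelihood test, compared with 23.3% of all genes tested, and 2 fell, compared with 24.3%. Casp1, the caspase of inflammasomes, had 821 and 2047 counts in M0 and M1, and 696 and 1341 in their irradiated counterparts. Casp4, also called caspase-11, which senses bacterial LPS in the cytosol, had 747 and 1624 counts in M0 and M1, and 707 and 1662 in their irradiated counterparts. Gsdmd, whose product forms pores in the cell membrane, had 1696 and 3041 counts in M0 and M1, and 1732 and 2102 in their irradiated counterparts. Casp4 thus stood close to its M1 level in RM1, whereas Casp1 and Gsdmd lay between M1 and RM0. Trim21, a ubiquitin ligase, had 134 and 220 counts in M0 and M1, and 138 and 229 in their irradiated counterparts. Nlrp3, an inflammasome sensor, had 1871 and 280 counts in M0 and M1, and 2119 and 663 in their irradiated counterparts, and Atg3, an enzyme that attaches lipid to autophagy proteins, had 809, 414, 834 and 457. Nlrp3 and Atg3 were the 2 that fell in M1. The M1-by-irradiation term was called lower for 2 of the 20, Casp1 (-0.67 ± 0.18) and Gsdmd (-0.76 ± 0.17), compared with 4.61% of all genes tested. It was called higher for 1, Nlrp3 (0.95 ± 0.19), a direction called for 4.05% of all genes tested. In RM1 against M1 the median log2 fold change of the list was -0.07.

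**Figure D5:**
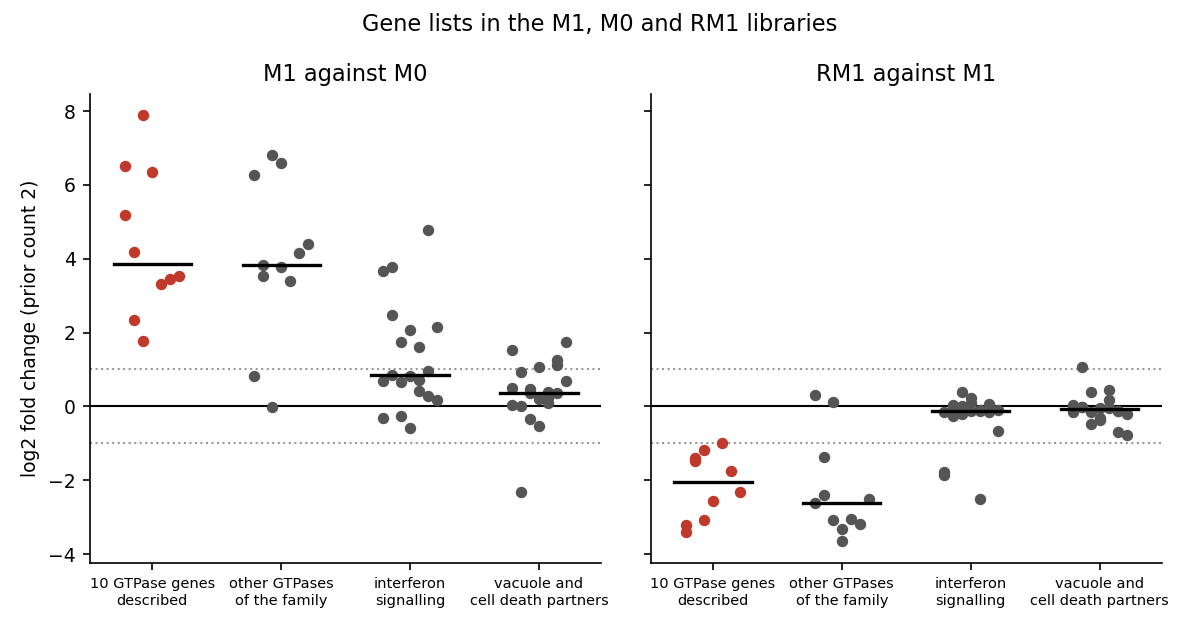
Log2 fold change (prior count of 2) of each gene with 10 or more counts in either library, for M1 against M0 (left) and RM1 against M1 (right), in 4 gene lists; black bars are list medians and dotted lines 2-fold. The 2 GTPase lists have medians of 3.86 and 3.82 on the left and -2.03 and -2.60 on the right, where the 2 other lists have medians near 0; both panels use the same M1 library.

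The 5 genes nearest in pattern to the median profile of the 10 GTPases were sought among 10181 other genes averaging 50 counts or more, by the Euclidean distance of log2 CPM over the 6 libraries after centring each gene. They were Aoah, an enzyme that inactivates LPS (distance 0.517), Il27, a cytokine subunit (0.727), AW011738 (0.741), the chemokine gene Cxcl10 (0.790) and the interferon-induced gene Ifit2 (0.800). The median distance of the other genes was 4.27, and the GTPases themselves ranged from 0.477 for Gbp9 to 4.19 for Gbp5. Aoah had 15, 238 and 17 counts in M0, M1 and M2, and 16, 62 and 9 counts after irradiation of the same states. Cxcl10 had 117, 1278 and 120 counts in M0, M1 and M2, and 64, 242 and 46 counts after irradiation of the same states. Ifit2 had 260, 4273 and 273 counts in M0, M1 and M2, and 185, 1570 and 195 counts after irradiation of the same states. In each of these the M1 library was the highest and RM1 the second.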

How the data were processed

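RNA-seq was performed on 6 libraries of RAW264.7 cells, 1 per condition. The authors deposited raw counts per RefSeq gene, without normalization. Their processing notes name Trimmomatic 0.36, HISAT2 2.2.1, HTSeq 0.11.3 and the mm10 build, and the methods name edgeR. Whether counting used strand is not given in the sources used here. Of 24062 rows, 8137 had 0 counts in all libraries and 27 had names turned into dates. Rows were matched by gene ID, and the 10 accessions matched their symbols in RefSeq.

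Libraries were grouped by the labels. Counts were scaled by TMM in edgeR 4.0.16 (R 4.3.3), computed on genes with at least 10 counts in 3 libraries, and a prior count of 2 entered the log2 fold changes. Ratios and their exact Clopper-Pearson 95% intervals used no prior count. A call required a 2-fold difference and at least 10 counts in 1 of the 2 libraries. At these totals 3 counts correspond to 0.148 to 0.203 CPM. edgeR's quasi-likelihood test was fitted over 11574 genes to state and irradiation, with 2 residual degrees of freedom, and with an added M1-by-irradiation term, with Benjamini-Hochberg adjustment at 0.05. On simulated data for that term, with 200 of 11574 genes changed, 41% of genes with a log2 fold change of 1 and 93% of those with 2 were recovered. There were 8 false calls. Unlike the data, the simulation gave all genes the same spread and no other effect of state or irradiation.

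The members and gene lists were chosen with earlier results of these data known. All members are named. List genes are named by the 4 largest and 2 smallest log2 fold changes of M1 against M0, and Stat2, Jak2, Ifng, Ifi47 and Dcn were named after their values were seen. From the interferon signalling list 1 gene is not reported here and was left out of its counts. The alternatives were DESeq2 1.42.0 size factors or Wald test, library totals, a prior count of 0.25, removal of a GC trend, other count filters, a 4-fold threshold, no polarization term and each state left out. Tables were made with Python 3.11.15, matplotlib 3.10.9, scipy 1.17.1, pandas 2.3.3 and numpy 2.4.6.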

Additional observations from a re-analysis of the deposited data

Results flagged for a closer look

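The difference between irradiated and non-irradiated libraries was not the same in the M1 state as in M0 and M2 for 7 genes, by the M1-by-irradiation term of edgeR's quasi-likelihood test at an adjusted p of 0.05. The extra log2 difference was -2.86 for Gbp2, -2.79 for Gbp5, -1.94 for Igtp, -1.12 for Irgm1, -0.97 for Gbp3, -0.83 for Irgm2 and -0.64 for Gbp7. Taken against M0 alone it was -2.67 for Gbp2 and -0.77 for Gbp7, and against M2 alone -3.22 and -0.51, without a test. Gbp6 and Iigp1, which could not be tested with that count filter, had differences of -2.29 and -2.31 from the mean of M0 and M2, resting on 7 counts or fewer outside M1 and RM1. Whether irradiation or the time after stimulation goes with these differences cannot be told apart, since the sources used here do not state it for the non-irradiated cells.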

How the results depend on the processing

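No paired analysis by replicate number was possible because each condition has 1 library and the labels number no replicates. The polarization term in the test of irradiation sets each irradiated library against the other library of its state. Scaling by library totals moved the median log2 fold change of all genes to -0.46 for M1 against M0, -0.25 for RM1 against RM0 and 0.13 for RM1 against M1, and the 10 members kept their directions in these 3 comparisons under each scaling and the GC correction. With library totals 8 rather than 9 members were called in RM1 against RM0, and the M2 effect of Irgm2 turned to 0.049. At a 4-fold threshold 5 members were lower in RM1 than in M1, 0 in M2 than in M0 and 0 in RM2 than in M2. Without a count filter 1 member (Iigp1, 0 counts against 3) was lower in RM0 than in M0, with a prior count of 0.25 2 were lower in M2 than in M0, and with at least 50 counts 0 were lower in RM2 than in M2.

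The test of irradiation over the 3 states was the least stable, with 2 members called lower. The number was 0 with library totals, 4 with a filter of 10 counts in 1 library, 7 without a filter and 0 without a polarization term. With each state left out in turn it ranged from 1 (without M1 and RM1) to 10 (without M0 and RM0). The counts of 4, 7 and 10 include Gbp6 and Iigp1, which had 10 counts or more only in M1 and RM1. The number of all genes called went from 55 to 74 with DESeq2 size factors, 3 with library totals, 115 with DESeq2's Wald test, 156 without a filter, 0 without a polarization term and 551 to 680 with the M1 or M0 state left out. For the M2 effect 22 genes were called, 3 with library totals, 41 with DESeq2 and 1432 without M1 and RM1, where 1 member, Gbp2, was called lower. The M1-by-irradiation term kept 6 or 7 members under other scalings and filters and 3 with DESeq2's Wald test. Over all genes it called 1003, compared with 1686 with library totals, 400 without a filter and 152 with DESeq2, and the share called lower went from 534 of 1003 to 232 of 1686 with library totals. For the M1 effect, where all tested members were called under each alternative, library totals gave 1091 genes higher and 4750 lower, compared with 2692 and 2817. The causes were not tested. Depth limits Gbp6 and Iigp1, which had 7 counts or fewer in 4 libraries.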
